A study of Gossypium hirsutum with 16 samples.

Results

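A set of 30 annotated cotton genes had transcript in every control shoot apex and little or none in any apex labelled as silenced for GhBRC1. They were chosen by their FPKM (fragments mapped to a gene, scaled to its length and to the mapped fragments of the library): at least 1 FPKM in all 8 control libraries, and a highest silenced value under 12.5% of the lowest control value. The rule kept 30 of 62297 annotated IDs, out of 70422 IDs in the deposited table. Of the 38475 annotated IDs that reached 1 FPKM in all 8 controls, 0.078% met it. Because the rule used the difference between silenced and control libraries, that difference is described for these genes and not tested.

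The study sequenced messenger RNA of the shoot apex (stem tip) of Gossypium hirsutum seedlings in 16 libraries, 4 in each of 4 groups. Strain 3798 is a nulliplex-branch cotton, a type whose flowers sit directly on the main stem. The other strain, Jinxian-short branch (JX), has short fruiting branches. Each strain had a control group and a group in which GhBRC1 was silenced by VIGS (virus-induced gene silencing). The labels leave unsaid what the controls received, whether they carried a virus, and how many plants went into a library. Nor do they say that the 4 libraries of a group are separate plants, and the p-values below cover the spread between libraries only, which may be technical.

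BRC1 belongs to the TCP family of plant transcription factors, and in Arabidopsis, pea and other plants it restrains the outgrowth of axillary buds. In virus-induced gene silencing a virus carrying a fragment of a plant gene leads the plant's own RNA interference machinery to degrade matching transcripts, which lowers a transcript and usually does not remove it. Upland cotton is an allotetraploid, and most of its genes exist as near-identical copies on an A and a D subgenome. Gene names could not be matched to the IDs, so the 30 genes are given by ID and no role is assigned to them. For the same reason GhBRC1 itself and markers of the shoot apex were not looked up, and pathway lists were not counted.

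Some libraries stood apart from their groups. The third 3798 control correlated better with the JX controls (mean r of 0.964) than with the other 3798 controls (0.929), over annotated IDs on the log2(FPKM + 0.5) scale. Against the JX controls JX silenced 4 had a mean r of 0.934, where the other JX silenced libraries had 0.863 to 0.897, and 3798 silenced 4 had 0.925, where the other 3798 silenced libraries had 0.867 to 0.875. JX control 1 correlated with the other JX controls as they did among themselves, but at some of the genes described here it lay nearest to the silenced libraries. Whether any of these libraries holds RNA of another group or genotype was not tested. Sequencing depth relative to 3798 control 1, estimated from low FPKM values and not from read counts, ran from 0.909 to 1.33. Its means were 1.12 and 1.11 in the silenced groups and 1.05 and 1.002 in the control groups of 3798 and JX. By this estimate the silenced libraries were on average not the shallower ones. Absolute depth is unknown, and no counting interval can be given.

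Summed over the 30 genes, the level was 264 ± 28.0 FPKM in 3798 controls and 258 ± 40.4 FPKM in JX controls (SD, n = 4 each). In the silenced libraries the same sum was 3.51 ± 0.483 FPKM in 3798 and 3.97 ± 0.464 FPKM in JX (SD, n = 4 each). The lowest control was JX control 1 at 206 FPKM, and the highest silenced library was JX silenced 3 at 4.49 FPKM. In apex tissue sequenced in bulk, fewer cells that use a gene and less RNA of it per cell cannot be told apart.

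The mean control level was above 10 FPKM in 5 genes, 11 lay between 5 and 10, and 14 were under 5. Their median mean control level was 5.14 FPKM, against 7.24 FPKM for all annotated IDs that reached 1 FPKM in the 8 controls, with single genes from 1.84 to 71.3 FPKM.

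Gh_D05G386600, on chromosome D05, was the most abundant. It was at 60.2, 57.6, 82.1 and 63.1 FPKM in 3798 controls 1 to 4 and at 48.9, 74.3, 77.7 and 107 FPKM in JX controls 1 to 4. It was at 1.53, 1.46, 1.59 and 2.20 FPKM in 3798 silenced 1 to 4 and at 0.963, 1.07, 2.38 and 0 FPKM in JX silenced 1 to 4. A low level was thus kept in 7 of the 8 silenced libraries, JX silenced 4 being the one listed at 0. This gene alone made up 21.9% to 35.2% of the summed control level and 0% to 67.7% of the summed silenced level. Without it the highest silenced sum was that of JX silenced 4, at 3.41 FPKM, and JX silenced 3 was at 2.11 FPKM.

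Gh_A07G084200, on chromosome A07, had the second highest level and was listed at 0 in all 8 silenced libraries. Its controls were at 25.4, 25.3, 27.5 and 21.4 FPKM in 3798 and at 19.2, 23.0, 20.7 and 16.9 FPKM in JX. Gh_D10G226600 was at 23.7, 15.02, 20.1 and 19.6 FPKM in 3798 controls and at 20.7, 19.8, 14.5 and 21.3 FPKM in JX controls. Unlike Gh_A07G084200 it was detected in every silenced library, at 0.166 to 1.01 FPKM in 3798 and 0.573 to 1.13 FPKM in JX.

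Gh_D13G093100 was at 14.1 to 22.2 FPKM in 3798 controls and 10.1 to 16.2 FPKM in JX controls. In the silenced libraries it was at 0.0523, 0, 0.281 and 0 FPKM in 3798 and at 0.430, 0.101, 0.501 and 0.644 FPKM in JX. The residue was on average larger in JX, 0.419 against 0.0833 FPKM, a difference that was not tested. Gh_D05G379900, the fifth by level, was at 10.99 to 14.5 FPKM in 3798 controls and at 4.62, 12.05, 13.9 and 11.9 FPKM in JX controls, and at or under 0.0837 FPKM in every silenced library.

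**Figure D1:**
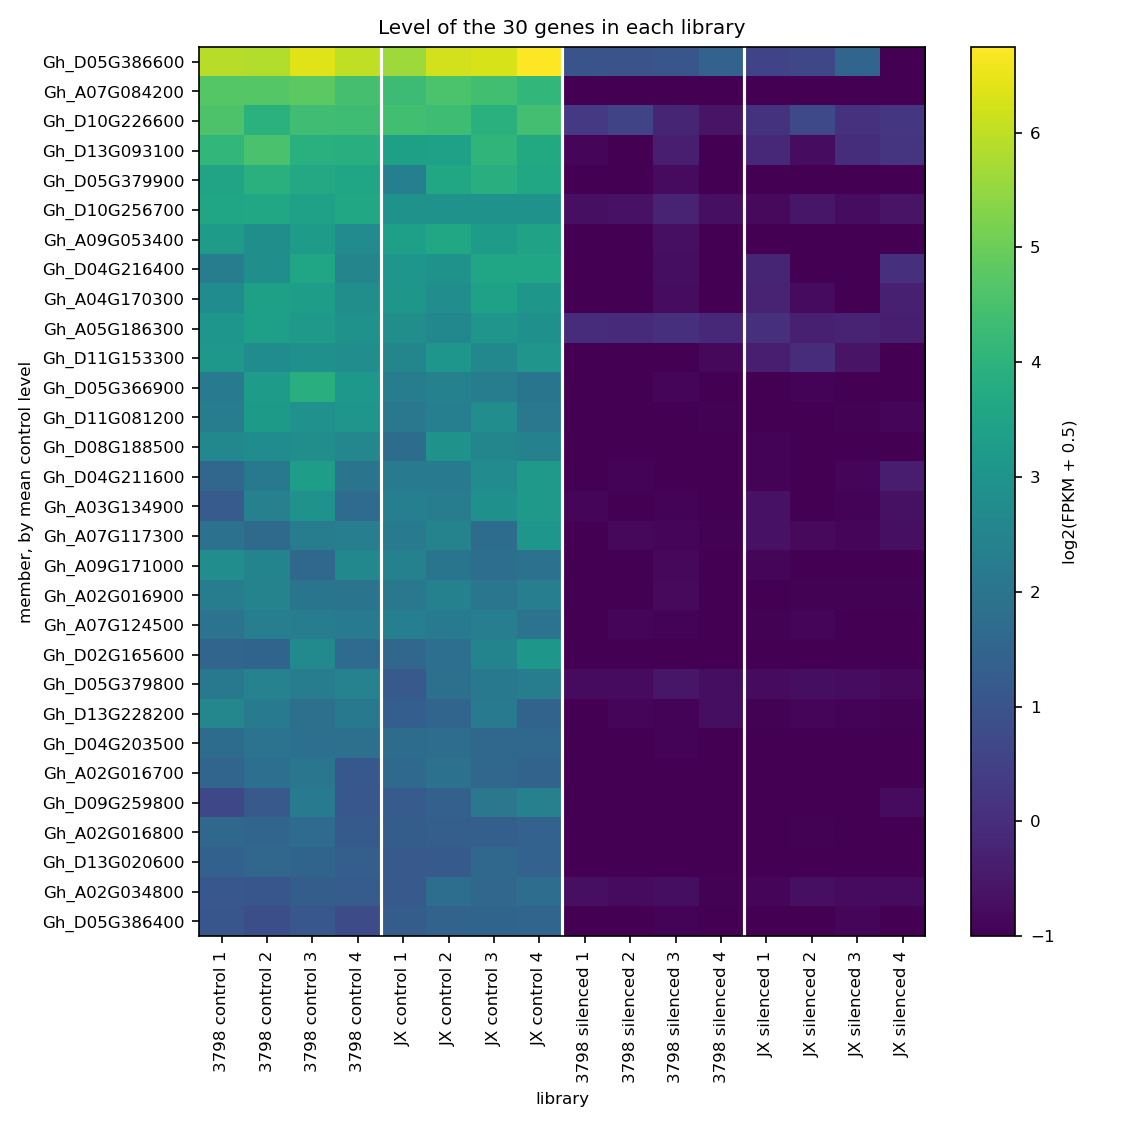
Level of the 30 genes (rows, ordered by mean control level) in the 16 libraries (columns, 4 per group, white lines between groups), as log2(FPKM + 0.5), where 0 FPKM is plotted at -1. Within each row the 8 control columns are brighter than the 8 silenced columns, as the rule requires, with residues in Gh_D05G386600, Gh_D10G226600 and Gh_A05G186300. The colour scale is shared by all rows, so controls of genes at low levels are dark as well.

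How far the transcripts were depleted differed from gene to gene. Of the 240 values of these genes in silenced libraries, 125 were listed at 0. The 4 genes at 0 in all 8 silenced libraries were Gh_A02G016700, Gh_A07G084200, Gh_D02G165600 and Gh_D13G020600. At least 4 silenced libraries were at 0 in 19 genes. The 5 genes at 0 in none were Gh_A02G034800, Gh_A05G186300, Gh_D05G379800, Gh_D10G226600 and Gh_D10G256700. An FPKM of 0 can also come from how the authors' software shared reads between near-identical copies, so it is described as listed at 0.

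The lowest residues above 0 were in Gh_D08G188500, whose highest silenced value was 0.758% of its lowest control, Gh_D04G203500 (0.956%) and Gh_A02G016800 (1.08%). Gh_D08G188500 was at 5.45 to 6.54 FPKM in 3798 controls and at 2.85, 7.45, 5.34 and 4.84 FPKM in JX controls, and a single silenced library, JX silenced 1, was above 0, at 0.0216 FPKM. Gh_D04G203500 was the steadiest of all among the controls, at 2.84, 3.34, 3.02 and 3.14 FPKM in 3798 and 2.82, 2.93, 2.60 and 2.51 FPKM in JX, and it was above 0 in 3798 silenced 3 only, at 0.0240 FPKM. Both were thus close to absent in every silenced library while differing little (Gh_D04G203500) or more than 2-fold (Gh_D08G188500) between controls.

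In 5 genes at least 1 silenced library was above 5% of the mean control level. Gh_A05G186300 was at 5.57 to 9.83 FPKM in controls and between 0.278 and 0.561 FPKM in all 8 silenced libraries, with its highest silenced value at 7.47% of the control mean. Gh_D11G153300 was at 5.35 to 8.24 FPKM in controls. In 3798 silenced libraries it was at 0, 0, 0 and 0.0585 FPKM, and in JX silenced libraries at 0.285, 0.482, 0.157 and 0 FPKM, so nearly all of its residue lay in JX silenced 1 to 3. The other 3 were Gh_D04G216400 (6.35%), Gh_A02G034800 (5.97%) and Gh_D10G226600 (5.84%).

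The highest silenced value fell in 3798 silenced 3 for 8 genes, in JX silenced 1 and JX silenced 4 for 5 each, and in 3798 silenced 2 for 0. Library 3 of the 3798 silenced group was the deepest of the 16 by estimated relative depth, at 1.33 times 3798 control 1. It had 10 of the 30 genes at 0, where the other 3798 silenced libraries had 17 to 21. The part of depth in these residues was not tested.

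At the limit of the rule the values run on without a gap. Just inside it lay Gh_D04G216400, with a highest silenced value of 12.3% of the lowest control, and Gh_D05G379800, with 10.7%. Just outside lay Gh_D11G090500 at 12.8% and Gh_D10G253600 at 13.02%. Gh_D04G216400 was at 4.22, 6.80, 11.49 and 5.20 FPKM in 3798 controls and at 7.91, 7.34, 11.4 and 11.3 FPKM in JX controls, and its highest silenced value was 0.521 FPKM in JX silenced 4, followed by 0.368 FPKM in JX silenced 1. Of the 10 IDs next outside the limit, 6 had their highest silenced value in JX silenced 4.

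Library JX silenced 4 also decided how many genes met the rule. Without it 59 annotated IDs qualified, among them all 30, and leaving out any other single library gave 30 to 35. The 29 added IDs stood in JX silenced 4 at a median of 39.1% of their control mean (3.84% to 63.2%), while in the other 7 silenced libraries their highest value had a median of 0.696% of it. The 30 genes were in JX silenced 4 at a median of 0.215% of their control mean, with a maximum of 6.35%. The rule fixes that the 29 were low in the other 7 silenced libraries. It also fixes that the 30 were low in JX silenced 4 as well, so the direction of this contrast carries no further information.

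**Figure D2:**
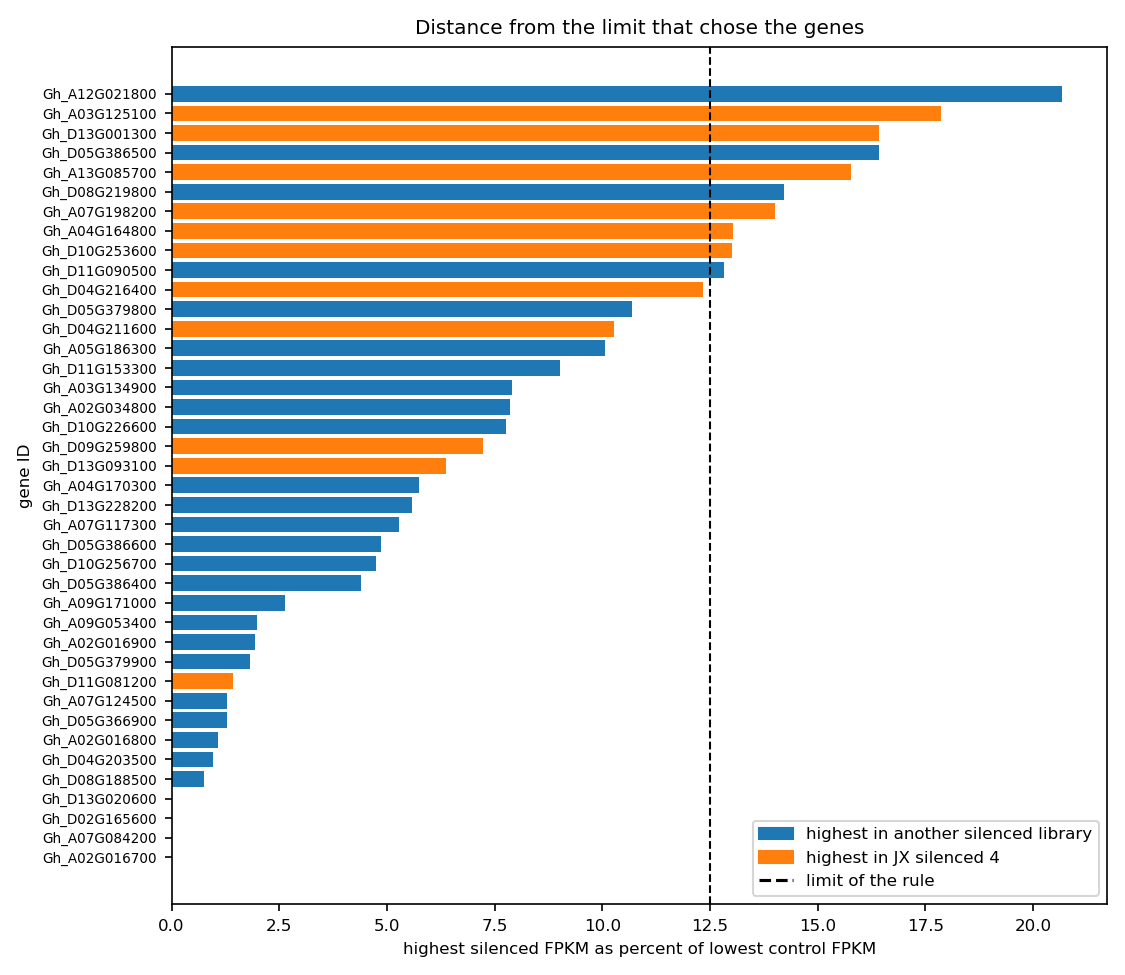
Highest silenced FPKM as a percentage of the lowest control FPKM (bars) for the 30 genes and the 10 annotated IDs next outside the limit, which is drawn as a dashed line. Orange bars have their highest silenced value in JX silenced 4, as in 6 of the 10 IDs outside, and the 4 genes without a bar are listed at 0 in all silenced libraries.

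In ID order 7 of the 30 genes lay next to or within 2 places of another, in 3 runs. The annotated IDs of the deposited table are taken in the order of their numbers on a chromosome, with no coordinates. Numbers absent from the table are skipped, so IDs called next to each other can have a missing number between them. Neighbouring IDs were not chosen by the rule, so their response to silencing could be tested.

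The first run is Gh_A02G016700, Gh_A02G016800 and Gh_A02G016900 on chromosome A02, consecutive in ID order. In controls they were at 1.71 to 3.65, 1.78 to 2.76 and 3.48 to 4.97 FPKM. In silenced libraries the first was listed at 0 throughout, the second reached 0.0192 FPKM and the third 0.0676 FPKM. Directly after the run, Gh_A02G017000 was at a mean of 0.0216 FPKM in controls and 0.0305 FPKM in silenced libraries, too low to be tested. Gh_A02G017200, 3 places beyond the run, was at a mean of 6.21 FPKM in controls and 6.26 FPKM in silenced libraries. Gh_A02G017100, just before Gh_A02G017200, was higher in silenced libraries, at a mean of 0.867 against 0.173 FPKM. Its log2 change was 1.11 in 3798 and 0.92 in JX (limma adjusted p = 0.00066 and 0.0018). On the lower side Gh_A02G016400, 2 places before the run, was at a mean of 37.9 and 45.7 FPKM and did not pass (limma adjusted p = 0.60 and 0.22).

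The second run is Gh_D05G379800 and Gh_D05G379900 on chromosome D05. Gh_D05G379800 was at 3.86 to 4.94 FPKM in 3798 controls and at 1.74, 3.15, 3.93 and 4.27 FPKM in JX controls, with 0.0571 to 0.185 FPKM in silenced libraries. In both genes JX control 1 was the lowest control. The ID before the run, Gh_D05G379700, was at 0.144 to 0.795 FPKM in controls and at most 0.0132 FPKM in silenced libraries, and was too low to be tested. Gh_D05G379600, 1 place further, fell from a mean of 5.84 to 3.05 FPKM, a log2 change of -0.88 in 3798 and -0.81 in JX (limma adjusted p = 0.00059 and 0.00089). The ID after the run, Gh_D05G380000, was at a mean of 3.33 and 3.19 FPKM, and its log2 changes of -0.14 and 0.04 did not pass (limma adjusted p = 0.59 and 0.86).

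The third run, also on D05, is Gh_D05G386400 and Gh_D05G386600, with Gh_D05G386500 between them. Gh_D05G386500 narrowly missed the rule: it was at 1.20 to 2.72 FPKM in controls and 0 to 0.196 FPKM in silenced libraries, a highest silenced value of 16.4% of the lowest control. It fell in both strains, by a log2 change of -1.78 (SE 0.187) in 3798 and -2.20 (SE 0.187) in JX (limma adjusted p = 9.7e-06 and 8.0e-07). All 3 IDs were therefore at low levels in every silenced library, but at different control levels, with means of 1.84, 1.83 and 71.3 FPKM.

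The ID just before that run moved the other way. Gh_D05G386300 was at 0.0431 to 0.110 FPKM in 3798 controls and at 7.04, 0.0683, 0.149 and 0.154 FPKM in JX controls 1 to 4. In silenced libraries it was at 9.72 to 14.9 FPKM in 3798 and at 13.1, 13.01, 10.2 and 0.477 FPKM in JX. It rose by a log2 change of 4.43 in 3798 and 2.51 in JX (SE 0.838 for both, limma adjusted p = 0.0027 and 0.037). JX control 1 was high like the silenced libraries, and JX silenced 4 was low, near the controls, so in JX the groups overlapped. Just after the run, Gh_D05G386700 was at a mean of 37.1 FPKM in controls and 4.26 FPKM in silenced libraries, with overlapping ranges of 0.663 to 64.4 and 1.45 to 9.44 FPKM. Its log2 changes were -1.98 in 3798 and -3.31 in JX, of which the second passed (limma adjusted p = 0.18 and 0.015).

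**Figure D3:**
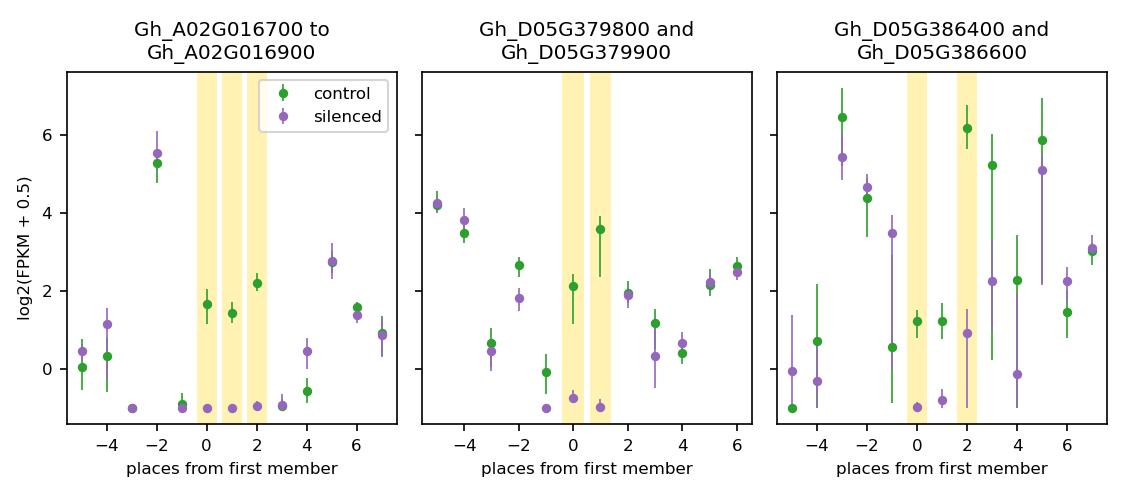
Levels around the 3 runs, as log2(FPKM + 0.5) of the mean over 8 control (green) and 8 silenced libraries (purple), with lines from the lowest to the highest library, against the place in ID order from the first gene of the run. Yellow bands mark the genes of the set: there the groups lie far apart, while most IDs on both sides overlap, with exceptions such as Gh_A02G017100, Gh_D05G379600 and Gh_D05G386500.

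A second pair of opposite neighbours lay on chromosome D13. Gh_D13G228200, one of the 30, was at 5.52, 4.01, 3.10 and 3.85 FPKM in 3798 controls and at 1.97, 2.35, 4.07 and 2.26 FPKM in JX controls, and at most 0.110 FPKM in silenced libraries. The next ID, Gh_D13G228300, was at 0.0783 to 0.287 FPKM in 3798 controls and at 1.84, 0.217, 0.134 and 0.147 FPKM in JX controls, and its 8 silenced values lay between 4.26 and 5.74 FPKM. It rose by a log2 change of 3.06 (SE 0.310) in 3798 and 2.63 (SE 0.310) in JX (limma adjusted p = 6.7e-06 and 3.0e-05), with no overlap between groups. JX control 1 was again the control nearest to the silenced libraries, and it was the lowest of the 8 controls for Gh_D13G228200. Over the set, JX control 1 was the lowest control for 10 of the 30 genes, with a median of 83.5% of a gene's mean, and every other control was the lowest for 1 to 6. The strandedness of the counting is not given in the sources used here, so reads of overlapping neighbours on opposite strands could have been joined. Whether any of these IDs overlap is unknown, and this was not tested.

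Directly beside one of the 30 genes, 3 further IDs fell in both strains. Gh_D04G216500, next to Gh_D04G216400, was at a mean of 11.9 FPKM in controls and 2.82 FPKM in silenced libraries (log2 change of -2.04 in 3798 and -1.79 in JX, limma adjusted p = 1.8e-06 and 7.5e-06). Gh_D13G092900, next to Gh_D13G093100, fell from 6.26 to 1.91 FPKM (log2 change of -1.56 and -1.41, limma adjusted p = 1.2e-05 and 3.2e-05). Gh_A04G170400, next to Gh_A04G170300, fell from 9.03 to 3.75 FPKM (log2 change of -1.59 and -0.88, limma adjusted p = 0.00021 and 0.0100), with JX silenced 4 at 7.24 FPKM inside the range of the JX controls. Gh_A07G124400, next to Gh_A07G124500, rose from 23.0 to 31.5 FPKM (log2 change of 0.53 and 0.37, limma adjusted p = 0.013 and 0.045).

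Among the 31 tested IDs directly beside one of the 30 genes, a window chosen after the values were seen, 4 fell in both strains (12.9%) and 3 rose in both (9.68%). Over all 55040 genes tested, 2.94% fell in both strains and 4.57% rose in both. These 55040 include IDs called newGene, which have no position and so cannot be neighbours. Within 2 places on each side, 6 of 73 tested IDs fell in both strains and 6 rose in both (8.22% each). Within the planned 5 places on each side, 9 of 202 tested IDs fell in both strains (4.46%) and 8 rose in both (3.96%). Taking each strain alone, 35 of these 202 passed limma at a threshold of 0.05 in 3798 (17.3%, 15 higher and 20 lower), where 12.8% of all genes did, 7.51% upward and 5.28% downward. In JX 52 passed (25.7%, 27 higher and 25 lower), against 28.3% of all genes, 14.6% upward and 13.7% downward. Within 2 places the shares that passed were 24.7% in 3798 and 26.0% in JX. Over 5 places the neighbours' shares in JX were thus near those of all genes.

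The 30 genes themselves all passed limma in both strains, against the 12.8% and 28.3% just given, which the rule fixes and which carries no further information.

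The genes were spread over 14 of 26 chromosomes, 12 on the A (40.0%) and 18 on the D subgenome (60.0%). Of all annotated IDs at 1 FPKM or more in the 8 controls, 48.8% were on the A and 49.9% on the D subgenome. Chromosome D05 held 5 of them and A02 held 4, and A07, D04 and D13 held 3 each, in D05 and A02 partly as the runs described above.

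In ID order, 15 of the 30 genes lay near a chromosome end, a division made after the positions were seen. The last 10% of the IDs of a chromosome held 11 of the 30 genes (36.7%), and the first 10% held 4 (13.3%). Of the 37977 IDs at 1 FPKM or more in all controls on chromosomes, 9.70% were in the last and 9.97% in the first 10%. All 5 genes of D05 lay between places 3297 and 3452 of its 3603 IDs, and the 3 genes of D04 between places 1693 and 1806 of its 1829. Gh_A04G170300 was in place 1349 of 1374 on A04, Gh_D09G259800 in place 2240 of 2291 on D09 and Gh_D10G256700 in place 2170 of 2384 on D10. With each run counted as 1 gene, 11 of 26 lay in the first or last 10% (42.3%), against 19.7% of the background. Of the 48 annotated genes on chromosomes that met the rule with silenced and control libraries exchanged, 15 lay there (31.3%). The difference between the sets was not tested.

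The comparison of the control groups of the strains was not used by the rule as a contrast and was tested. The fit shares 1 estimate of the spread over all 4 groups, and the rule holds these genes low in the silenced groups. Their SE and p-values between the controls can therefore be too small. The rule nevertheless needs all 8 controls well above the silenced libraries, so a gene far lower in one strain could not easily have entered. Between the controls 6 of the 30 genes passed limma (20.0%), of which JX was higher in 1 and lower in 5. Over all 55040 genes tested 29.8% passed, with JX higher in 17.6% and lower in 12.2%, so the share among the 30 was not above the background. In a fit to the compared groups only, which leaves out the silenced libraries, 2 of the 30 passed (6.67%), against 25.2% of all genes tested. The control groups did not overlap for 2 of the 30 genes (6.67%), against 25.1% of all genes. The median log2 difference was -0.05 over the 30 genes and 0.03 over all genes.

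Gh_D10G256700 showed the clearest difference. It was at 11.6, 12.02, 10.3 and 11.8 FPKM in 3798 controls and at 7.27, 7.41, 7.46 and 7.38 FPKM in JX controls. All 4 JX values lay within 0.2 FPKM of each other and below every 3798 value. The log2 difference, JX minus 3798, was -0.59 (SE 0.122, limma adjusted p = 0.0038), and it passed in all 25 alternatives. In silenced libraries the same gene was at 0.0675 to 0.345 FPKM.

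Gh_D05G386400 was the one gene higher in JX. It was at 1.61, 1.32, 1.63 and 1.24 FPKM in 3798 controls and at 1.96, 2.28, 2.31 and 2.37 FPKM in JX controls, with no overlap. Its log2 difference was 0.49 (SE 0.127, limma adjusted p = 0.010). With a pseudocount of 0.1 FPKM it was 0.59 and did not pass (limma adjusted p = 0.092).

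Gh_D05G366900 had the largest difference among the 30, -0.86 (SE 0.245, limma adjusted p = 0.017), but a wide spread. It was at 3.96, 9.04, 14.01 and 8.18 FPKM in 3798 controls and at 4.26, 4.78, 4.40 and 3.55 FPKM in JX controls. The level in 3798 control 1 lay within the JX range and 3798 control 3 was the highest. Without 3798 control 3 the difference was -0.60 (limma adjusted p = 0.034). It did not pass without 3798 control 2 (-0.80, limma adjusted p = 0.051) or in the fit to the compared groups only (limma adjusted p = 0.062).

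The remaining 3 passed narrowly. Gh_D13G228200 differed by -0.56 on the log2 scale (SE 0.190, limma adjusted p = 0.035), with JX control 3 at 4.07 FPKM inside the 3798 range. Gh_A07G084200 differed by -0.32 (SE 0.109, limma adjusted p = 0.039) and Gh_D11G081200 by -0.52 (SE 0.190, limma adjusted p = 0.049). Leaving out single control libraries ended these calls: 3798 control 1, 2 or 4 or JX control 1, 2 or 4 that of Gh_D13G228200, and any control but 3798 control 4 and JX control 2 that of Gh_A07G084200. For Gh_D11G081200 it was any control but 3798 control 1 and JX control 3, and also any of the 8 silenced libraries. Without 3798 control 3 the adjusted p of limma was 0.014, 0.090 and 0.074 for these 3 genes.

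Without 3798 control 3, 10 of the 30 genes differed between the controls (33.3%), 6 higher and 4 lower in JX, while 38.9% of all genes tested did. Those that newly passed were Gh_A03G134900 (log2 difference 0.89, limma adjusted p = 0.012), Gh_D09G259800 (0.78, 0.017), Gh_D04G216400 (0.75, 0.031), Gh_D04G211600 (0.67, 0.036), Gh_A09G053400 (0.48, 0.020) and Gh_A09G171000 (-0.60, 0.0073). Without 3798 control 2, 2 of the 30 passed (6.67%), and 19.4% of all genes.

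**Figure D4:**
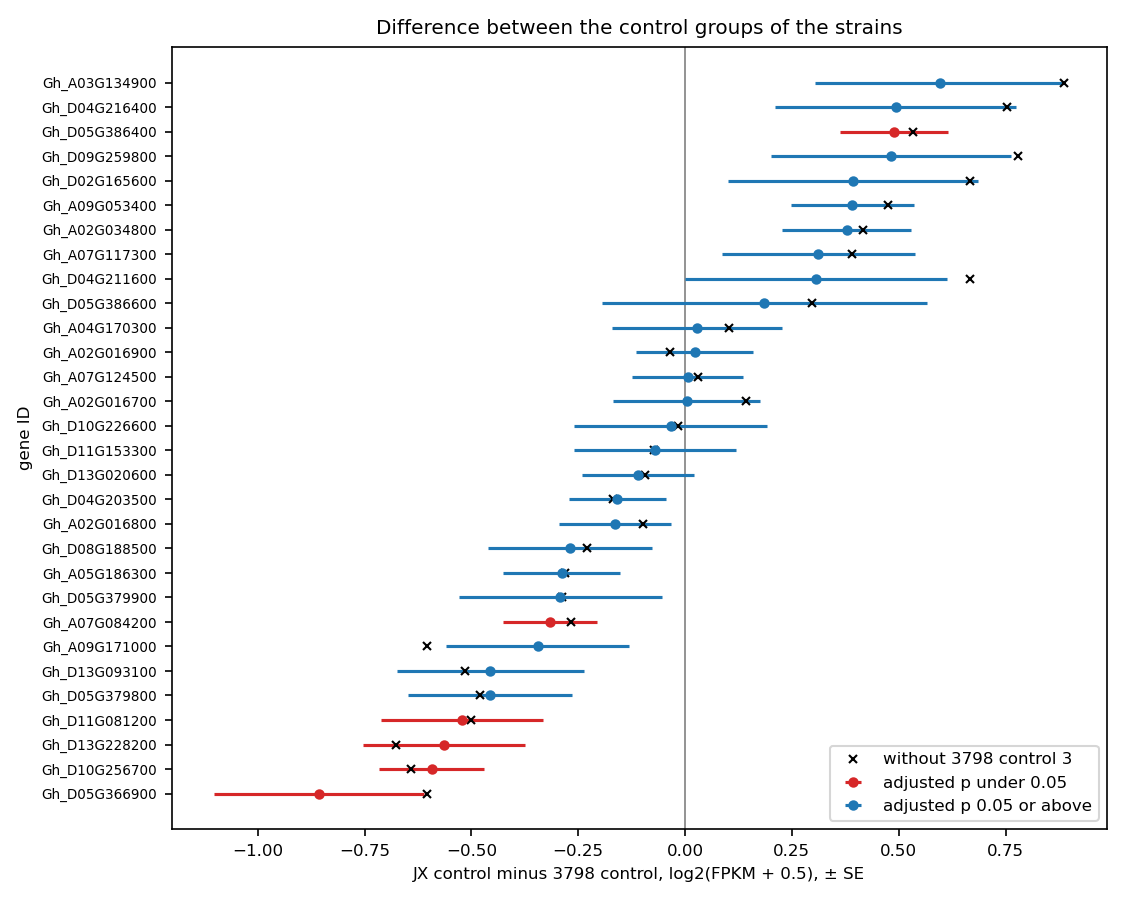
Difference between the control groups (JX minus 3798, log2(FPKM + 0.5)) for the 30 genes, with its SE (n = 4 per group). Red points passed limma at an adjusted p under 0.05 (1 to the right, 5 to the left of 0), and crosses give the difference without 3798 control 3, which lie to the right of the points for Gh_A03G134900, Gh_D09G259800, Gh_D04G216400, Gh_D04G211600 and Gh_D02G165600.

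Among the 8 controls the levels of the 30 genes varied by a median coefficient of variation of 25.0%, against 18.8% for all annotated IDs at 1 FPKM or more in the 8 controls. The ratio of the highest to the lowest control ran from 1.33 in Gh_D04G203500 to 4.55 in Gh_A03G134900, with a median of 2.16.

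A group of 6 genes on 5 chromosomes varied together across the controls: Gh_A03G134900, Gh_D02G165600, Gh_D04G211600, Gh_D04G216400, Gh_D05G386600 and Gh_D09G259800. They were picked out after their values were seen, as the largest set in which genes are linked by correlations of at least 0.9 on the log2 scale. A link to any other gene of the set was enough, and not all pairs reached 0.9. Gh_D05G386600 reached it only with Gh_D02G165600 (r of 0.93), while its r with Gh_D04G216400 was 0.64. Their medians were high in 3798 control 3, JX control 3 and JX control 4, at 144%, 131% and 164% of a gene's mean, and low in 3798 controls 1, 2 and 4 and JX controls 1 and 2, at 49.1% to 82.4%. The 24 other genes stood at medians of 86.1% to 115% in the 8 controls. Because the 6 were picked for varying together in these same libraries, this contrast carries no further information.

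Gh_A03G134900 was at 1.86, 4.67, 7.16 and 2.75 FPKM in 3798 controls 1 to 4 and at 4.55, 4.28, 6.83 and 8.44 FPKM in JX controls 1 to 4. Gh_D02G165600 was at 2.37, 2.31, 5.87 and 2.78 FPKM and at 2.42, 3.08, 5.12 and 8.01 FPKM. Gh_D04G211600 was at 2.43, 3.88, 9.51 and 3.42 FPKM and at 3.97, 3.96, 6.11 and 8.43 FPKM. In all 3 genes 3798 control 3 was the highest 3798 control. It lay inside the range of the JX controls for Gh_A03G134900 and Gh_D02G165600 and above every JX control for Gh_D04G211600.

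The closest pair was Gh_A03G134900 with Gh_D04G216400 (Pearson's r of 0.98 and Spearman's rho of 0.86 over 8 control libraries, with an r of 0.98 also without 3798 control 3). These values describe 8 libraries of 2 strains, which share library and strain across genes. Of the 435 pairs among the 30 genes, 10 reached an r of 0.9 (2.30%), a share below the 2.83% of all pairs of annotated IDs at 1 FPKM or more in the 8 controls. Gh_A09G171000 ran opposite to the 6 genes, with an r of -0.72 to -0.93, and was low in 3798 control 3 at 2.53 FPKM and high in 3798 control 1 at 6.51 FPKM. It made up 5 of the 8 pairs with an r of -0.8 or less. The neighbours Gh_D05G379800 and Gh_D05G379900 had an r of 0.88 but a rho of 0.40, JX control 1 being the lowest in both.

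**Figure D5:**
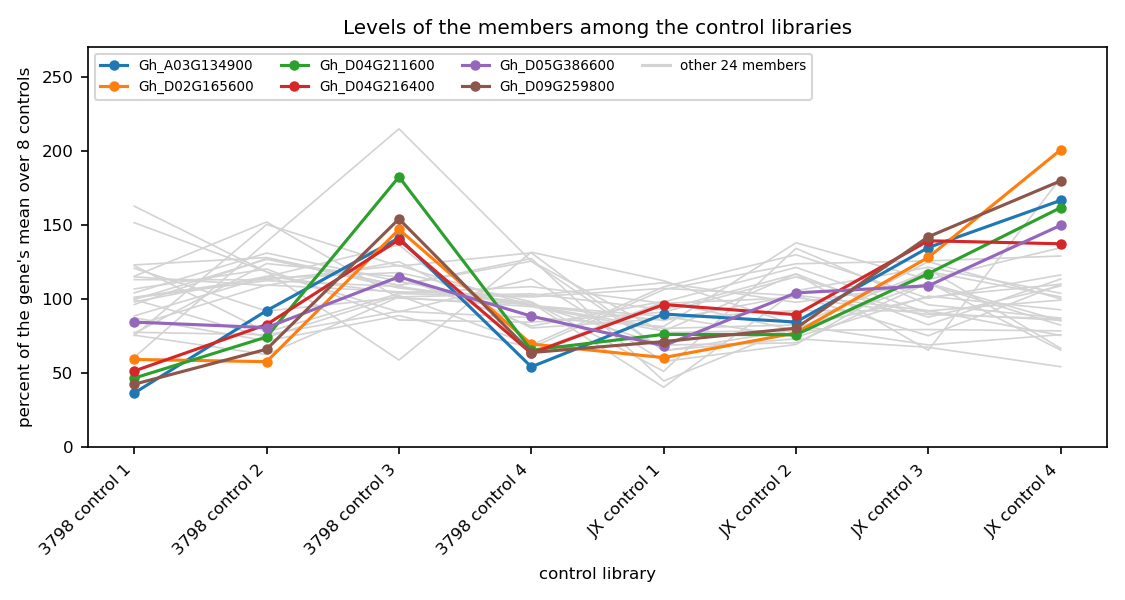
Level of each gene in the 8 control libraries as a percentage of its own mean over these libraries. The 6 coloured genes, picked for varying together in these libraries, rise in 3798 control 3, JX control 3 and JX control 4. The medians of the other 24 genes (grey) lie between 86.1% and 115%.

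The reverse rule, on in all 8 silenced and off in all 8 control libraries, was met by 50 annotated genes. Off here means under the limit of the rule and not absent: of the 30 genes, Gh_D05G386600 reached 2.38 FPKM in a silenced library. The median level of the 50 where they were on was 5.39 FPKM, beside 5.14 FPKM for the 30 genes. Of the 50, 11 (22.0%) were listed at 0 in all 8 libraries where they were off, beside 4 of 30 (13.3%). Their highest value where off had a median of 1.89% of the lowest value where on, beside 4.57%. Of the 30 genes 7 (23.3%), and of the 50 also 7 (14%), lay within 5 places of another of their own set. These shares were not tested against each other. Among IDs called newGene, which have no position, 32 met the first rule and 45 the reverse.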

How the data were processed

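The authors deposited 1 table of FPKM per gene ID and library; the unit comes from its name and its values, which total 552185 to 603167 per library. For the aligner, counter, build and annotation: not given in the sources used here. Groups and replicate numbers came from the titles, and columns were matched by the code in each sample's description. Of the 70422 IDs, 0 matched the 99454 genes of a RefSeq table of assembly Gossypium_hirsutum_v2.1.

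Genes at 0.5 FPKM or more in at least 4 libraries (55040) were fitted on log2(FPKM + 0.5), a scale that understates changes of low genes, with limma 3.58.1 in R 4.3.3: 1 mean per group over all 16 libraries, trended prior variance, robust estimation, two-sided tests, Benjamini-Hochberg adjustment over all genes tested and a threshold of 0.05. All 30 genes passed that filter, through their controls. The fit was also run on simulated data with independent normal noise. These data hold no library that stands apart from its group, so that case was not covered. Relative depth was the most frequent FPKM ratio of 3798 control 1 to a library, over genes under 0.5 FPKM in every library. Whole reads could not be recovered, because, after scaling by relative depth, 11.7% of 65485 low values were a whole multiple (tolerance 0.02) of their gene's lowest value, where evenly spread values give 4%. Identical columns numbered 0.

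The members and lists were chosen with earlier results of these data known. By the rule for named genes, the text names those with the highest levels, the smallest p between strains, the highest and lowest residues, those at the limit and those in runs; others were named after their values were seen. Alternatives were other pseudocounts, filters, scalings, windows and limits, a fit to the compared groups, a term for the replicate number and each library left out. Python 3.11.15, numpy 2.4.6, pandas 2.3.3 and matplotlib 3.10.9 were used.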

Additional observations from a re-analysis of the deposited data

Results flagged for a closer look

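In groups of 4 libraries, 1 library far from the other 3 was looked for in the summed level of the 30 genes in all 4 groups and in each gene's control groups (64 groups of values), and in each gene's silenced groups (60). Chance marks about 5% of such groups. Of the 64 groups only that of Gh_D02G165600 in 3798 controls was marked, a share under 5%. Gh_D02G165600 was at 5.87 FPKM in 3798 control 3, with the next 3798 control at 2.78. This is the library that correlated better with the JX controls. Library 3798 silenced 3 was the deepest by estimated relative depth. In it 4 genes stood above the rest of their group: Gh_A02G016900 at 0.0676 FPKM (next 0.0102), Gh_D05G366900 at 0.0453 (next 0.00504), Gh_D05G379900 at 0.0837 (next 0.00592) and Gh_D10G256700 at 0.345 (next 0.156). In 15 further silenced groups a single library was above 0, at 0.0182 to 0.123 FPKM, where any value above 0 is marked.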

How the results depend on the processing

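The number of genes meeting the rule was 30, and 59 without JX silenced 4 or 60 without 3798 control 3, 3798 silenced 4 and JX silenced 4 together, with 30 to 59 over single libraries left out. With these 3 libraries left out, all 30 were among the 60. Limits of 25% and 6.25% gave 43 and 20, floors of 0.5 and 2 FPKM gave 39 and 21, and median-ratio scaling gave 34. The 6 genes called between the strains' controls became 2 with a pseudocount of 0.1 FPKM, 2 in a fit to the compared groups only, 10 without the 3 libraries together, and 2 to 10 over single libraries left out. Calls between controls over all genes ranged from 10650 (without 3798 control 2) to 21330 (without 3798 control 3). Quantile normalization moved the share of all calls that were higher in JX from 59.1% to 51.1%. Called neighbours in 3798 were 29.0% with 1 ID on each side, a window added after the data were seen, against 17.3% with 5. The cause of these shifts was not tested. The call of Gh_D11G081200 was lost in 18 of 25 alternatives. No gene called between strains changed sign. Same-numbered libraries of different groups had deviations correlated between -0.37 and 0.36 (median 0.02). For libraries of other numbers the range was -0.29 to 0.44 (median -0.02). These ranges overlap and do not settle whether the numbers pair libraries. With a replicate block 5 of the 30 genes and 15570 genes in all were called between controls. Absolute depth is unknown, so a value listed at 0 has no stated limit.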
